A study of Mus musculus with 2 samples.

Results

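The levels of 8 genes of iron and heme handling were followed across the cell types of the mouse colon: Hmox1, Slc40a1, Slc11a1, Fth1, Ftl1, Tfrc, Cd163 and Blvrb. They were taken by symbol from the gene lists of both count tables, and all 8 were found among the 31053 features. Single-cell RNA sequencing had been run on cells of the colon lamina propria that the labels call cd11b+, that is, carrying the myeloid surface protein CD11b. Of the 2 libraries, 1 was from wild-type (WT) animals and the other from LncRNA17Rik knockout (KO) animals, which lack the long non-coding RNA called lncLy6c in the study. By the study's account the KO line was made by CRISPR-Cas9 on the C57BL/6J background, with guides before the first exon and after the second, and no cell-type-specific driver is named, and the sequenced cells were pooled from 8-week-old male mice. No treatment is named for either group, and cells of both were taken from a Percoll gradient with dead cells removed by 7-AAD staining.

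Macrophages that take up dying red cells break heme down and pass the iron on or store it. Heme oxygenase 1 (Hmox1) opens the heme ring and releases iron, biliverdin and carbon monoxide. Biliverdin reductase B (Blvrb) reduces some forms of biliverdin, and CD163 takes up hemoglobin bound to haptoglobin. Ferritin, built from a heavy chain (Fth1) and a light chain (Ftl1), stores iron, ferroportin (Slc40a1) is the exporter, the transferrin receptor (Tfrc) brings iron in, and NRAMP1 (Slc11a1) moves metal ions out of the phagosome.

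The cell filters that the study states left 2597 WT cells with 18994564 unique molecular identifiers (UMIs, each standing for 1 captured transcript) and 2514 KO cells with 22331342 UMIs. Cells were clustered without the iron and heme genes and clusters were named from marker genes. Of 26 clusters, 22 received a name and 4 did not, and the unnamed clusters are called by their 2 leading genes. Levels are UMIs per 1000000 of all UMIs in a class of cells, written CPM, and each interval is an exact 95% interval that covers counting error only. With 1 library per genotype a difference between WT and KO has no replicate check, so no p-value is given and the genotype cannot be told apart from the library. All 10 resident macrophage markers were raised in the cluster of that name, and 3 of 6 eosinophil markers in the eosinophil-like cluster, where 3 neutrophil markers were raised as well. The resident cluster had 206 WT and 111 KO cells. Of the resident markers, 7 were also raised in the unnamed Retnla Ccl24 cluster, with 19 WT and 150 KO cells. The unnamed Lgmn Mmp14 cluster, with 248 WT and 18 KO cells, had 3 of them raised. Resident macrophage-like ratios leave both clusters out unless stated. Although the label is cd11b+, clusters with B cell, T cell, plasma cell, epithelial and fibroblast markers were present. The name LncRNA17Rik matches no full gene symbol. Of 109 features ending in 17Rik, 12 had at least 50 WT UMIs and 0 of these were at 0 in KO, so the deletion could not be checked. The libraries were unequal in their makeup, since 10 clusters drew 80% or more of their cells from 1 library and 4 immunoglobulin genes summed to 83332 CPM in WT against 2822 in KO. In bulk over all cells, fewer cells of a type and less RNA per cell cannot be told apart, so results are given by class.

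Several genes of this system are known to carry the iron-responsive element, a hairpin in the transcript that iron regulatory proteins bind when iron is scarce. In a 5′ untranslated region it holds back translation, and in the 3′ untranslated region of Tfrc it protects the transcript. The hairpin was searched on the transcript strand of GENCODE M21 (GRCm38) as a C, 5 bases, the loop CAGTGN with a last base other than G, and 5 bases that pair with the first 5, G with T allowed. It was found in the 5′ untranslated region of 3 of the 8 genes, against 0.0962% of 21840 protein-coding genes, and in the 3′ untranslated region of 1, against 0.449%. Among 53 other iron and heme genes this pattern was found in 0 untranslated regions. The pattern asks for all 5 stem bases to pair, so an element with an imperfect stem or another loop would be missed. A gene without a match may therefore still carry the element. The sites are shown because they lie in the 5′ region of the storage and export genes and in the 3′ region of the importer, and capitals mark the loop.
Fth1: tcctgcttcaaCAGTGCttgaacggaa
Ftl1: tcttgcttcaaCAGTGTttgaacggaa
Slc40a1: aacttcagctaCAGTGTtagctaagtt
Tfrc, site 1: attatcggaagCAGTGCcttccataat
Tfrc, site 2: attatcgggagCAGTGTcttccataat
Tfrc, site 3: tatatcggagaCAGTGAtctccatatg
Tfrc, site 4: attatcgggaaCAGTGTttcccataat
The Fth1 site is chr19:9982733-9982759 on the plus strand, the Ftl1 site chr7:45459780-45459806 on the minus strand and the Slc40a1 site chr1:45925466-45925492 on the minus strand. The 4 Tfrc sites start at 32631220, 32631599, 32631664 and 32631711 on the plus strand of chromosome 16, each 27 bases long as printed. A match is a description of these letters. Counts of transcripts carry no measure of translation.

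Hmox1 (chromosome 8, 75093621 to 75100589, plus strand) was a gene of phagocytes and granulocytes in both libraries. In WT it was at 508 CPM (411 to 621) in neutrophil-like cells, 461 CPM (436 to 487) in inflammatory monocyte-like cells, 425 CPM (334 to 534) in eosinophil-like cells and 311 CPM (285 to 340) in resident macrophage-like cells. The unnamed Lgmn Mmp14 cluster, which had 248 WT and 18 KO cells, held 545 CPM (484 to 611) in WT. Neutrophil-like, eosinophil-like and monocyte-like cells overlapped in their intervals in WT, and resident macrophage-like cells lay below the monocyte-like cells. Among the KO classes with at least 30 cells, monocyte-like cells came first, at 1766 CPM (1720 to 1813), followed by neutrophil-like cells at 1004 CPM (935 to 1076), eosinophil-like cells at 999.6 CPM (910 to 1096) and resident macrophage-like cells at 902 CPM (842 to 966). The last 3 overlapped each other, and the 18 KO cells of the Lgmn Mmp14 cluster, at 1606 CPM (1157 to 2171), overlapped the monocyte-like cells. The unnamed Retnla Ccl24 cluster held 880 CPM (838 to 925) in 150 KO cells, which overlapped the resident macrophage-like cells. In its 19 WT cells the level was 580 CPM (462 to 718), above that of the WT resident macrophage-like cells. Dendritic cells held less, with 86.8 CPM in WT against 216 in KO for cDC2-like cells, and 33.6 and 73.6 CPM for cDC1-like cells. B cells held 21.1 CPM in WT against 17.8 in KO, with intervals that overlap.

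**Figure D1:**
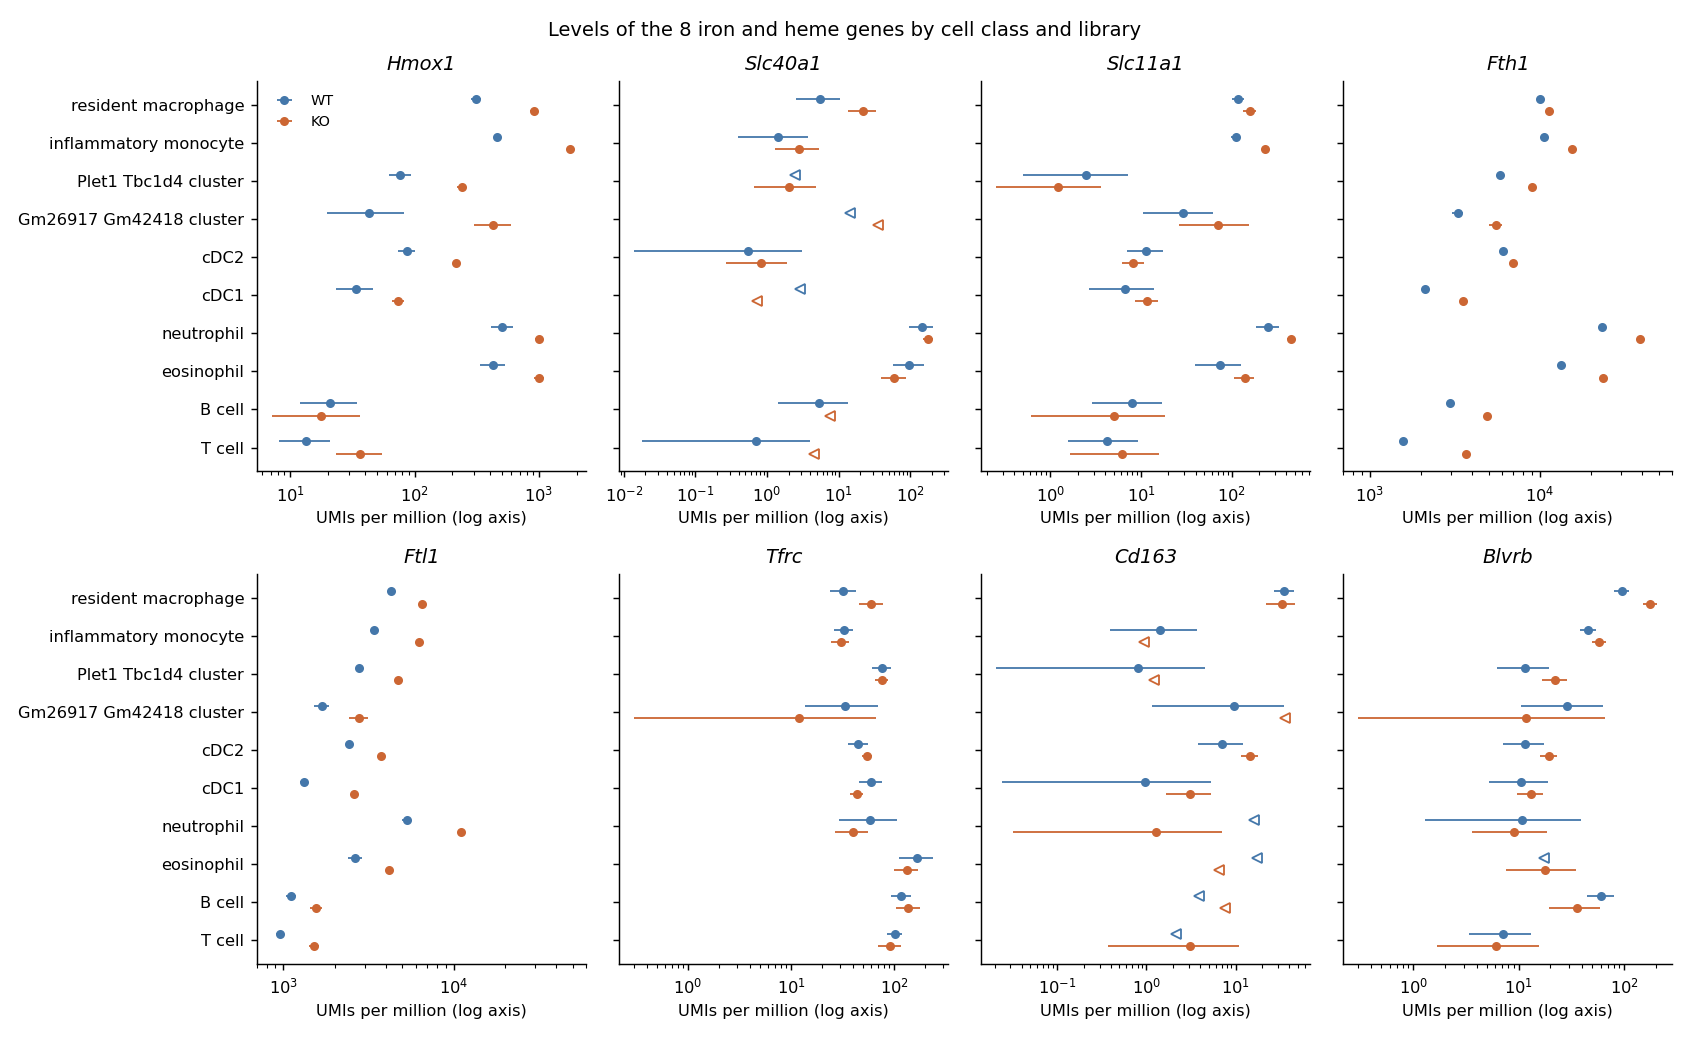
Level of each of the 8 genes in the 10 classes and clusters with at least 30 cells in both libraries, as UMIs per 1000000 on a log axis, for WT (blue) and KO (orange). Points are sums over cells, bars are exact 95% Poisson intervals and open triangles stand at the 3-count floor where the count was 0. Hmox1 in monocyte-like cells reached 1766 CPM in KO, the highest Hmox1 level plotted.

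KO cells held more Hmox1 than WT cells in 9 of the 10 classes, with the interval of the ratio above 0 in each of the 9. The log2 ratio of KO over WT was 1.94 (1.85 to 2.03) in inflammatory monocyte-like cells, 1.54 (1.37 to 1.70) in resident macrophage-like cells, 1.32 (1.08 to 1.56) in cDC2-like cells, 1.23 (0.88 to 1.61) in eosinophil-like cells, 1.13 (0.62 to 1.68) in cDC1-like cells and 0.98 (0.67 to 1.30) in neutrophil-like cells. The exception was B cells, at -0.24 (-1.77 to 1.12) from 16 WT and 7 KO UMIs. In T cells the ratio was 1.45 (0.52 to 2.39), from 19 and 24 UMIs. The Gm26917 Gm42418 cluster, of low depth, gave 3.30 from 9 WT and 36 KO UMIs. Its cells differed between the libraries, with 8 neutrophil markers at 101 CPM in WT against 7232 in KO. The 4 immunoglobulin genes were at 49795 CPM in WT against 71.1 in KO there. The part of these differences in its ratios was not tested. Over all cells Hmox1 was at 152 CPM in WT against 523 in KO, and monocyte-like cells held 44.3% of its WT UMIs and 48.5% of its KO UMIs. Marker levels also differed between the libraries in the resident class, where 9 inflammatory monocyte markers summed to 1285 CPM in WT against 339 in KO and the 10 resident macrophage markers to 19016 against 25042 CPM. In the monocyte-like class the resident markers summed to 4405 CPM in WT against 1907 in KO, and the monocyte markers to 7625 against 8274. The part of these shifts in the Hmox1 ratios was not tested. For comparison, the median log2 ratio over all genes tested was -0.18 in monocyte-like cells and -0.23 in resident macrophage-like cells.

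The monocyte-like class was filled by different clusters in the 2 libraries, so the ratio was also read within clusters. A cluster led by Ly6i and Cxcl9 gave 311 of 412 WT cells and 17 of 366 KO cells, and a cluster led by Chil3 and Ace gave 41 WT and 278 KO cells. Within the Chil3 Ace cluster Hmox1 was at 965 CPM (849.9 to 1091) in WT against 1960 (1906 to 2015) in KO, for a log2 ratio of 1.02 (0.84 to 1.21), against 1.94 for the whole class. Hmox1 was among the 10 leading genes of this cluster, although it was not used to form it. Within the Ly6i Cxcl9 cluster it was at 445 CPM (418 to 474) in WT against 872 (738 to 1024) in KO. The Ccnb1ip1 F13a1 cluster held 67.5 CPM in WT against 414 in KO, and the one led by Arg1 and Rsad2 held 284 CPM in 14 WT cells and 1609 CPM in 38 KO cells. KO was higher in each of the 4 clusters, with intervals that did not overlap. Without the 2 clusters that draw over 80% of their cells from 1 library, the class ratio was 2.92. Of the 11 clusters of any class with at least 30 cells in each library, 10 had an interval above 0 for Hmox1. Among the smaller clusters some had the higher level in WT. A cDC2-like cluster led by Retnla and Lpl held 83.8 CPM in 21 WT cells and 24.3 CPM in 86 KO cells, from 12 and 19 UMIs. Fibroblasts held 55.2 CPM (35.4 to 82.1) in 79 WT cells and 0 UMIs in 21 KO cells, which allows up to 14.1 CPM (3 counts). Epithelial cells held 33.1 CPM in WT against 21.9 in KO, with only 16 KO cells and intervals that overlap.

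**Figure D2:**
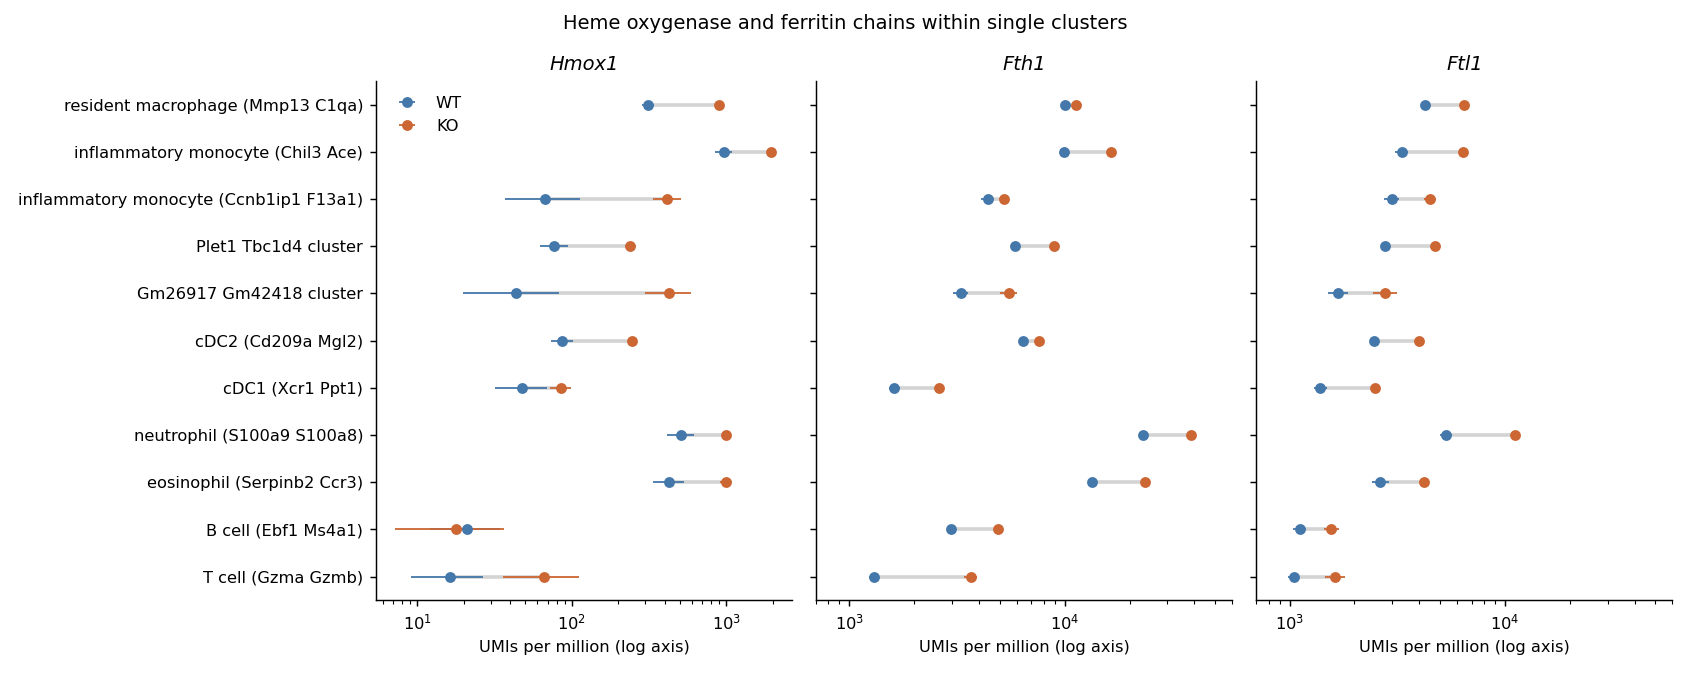
Levels of Hmox1, Fth1 and Ftl1 within each of the 11 clusters that had at least 30 cells in both libraries, as UMIs per 1000000 on a log axis, for WT (blue) and KO (orange) with exact 95% Poisson intervals. KO lies to the right of WT for both ferritin chains in every cluster shown and for Hmox1 in all but the B cell cluster, where the intervals overlap.

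A larger share of monocyte-like and resident macrophage-like cells held an Hmox1 transcript in KO. After every cell had been thinned to 2000 UMIs, 42.1% (37.2 to 47.1%) of 399 WT monocyte-like cells and 84.1% (79.8 to 87.8%) of 340 KO cells had an Hmox1 UMI, against 57.8% and 92.1% without thinning. Thinned shares in resident macrophage-like cells were 36.4% (29.7 to 43.5%) of 198 and 67.0% (56.9 to 76.1%) of 100 cells, against 63.6% and 82.0% without thinning, so the gap of 30.6 percentage points was 18.4 points before thinning. B cells, taken as a class that should lack Hmox1, had 1.84% in WT and 3.57% in KO. These shares serve as a background, whose source (free RNA or other) was not tested. The background depends on the class, since T cells held 13.5 CPM in WT against 36.8 in KO and B cells 21.1 against 17.8. Median depth was 3021 and 4394 UMIs in WT and KO B cells, and 6514 and 9339.5 UMIs in the monocyte-like cells. The median monocyte-like cell held 154 CPM in WT against 1511 in KO, and the 90th percentile cell held 1419 and 3757 CPM. In neutrophil-like cells the thinned shares were 40.8% (27.0 to 55.8%) of 49 WT cells and 59.9% (53.3 to 66.3%) of 232 KO cells, which overlap.

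**Figure D3:**
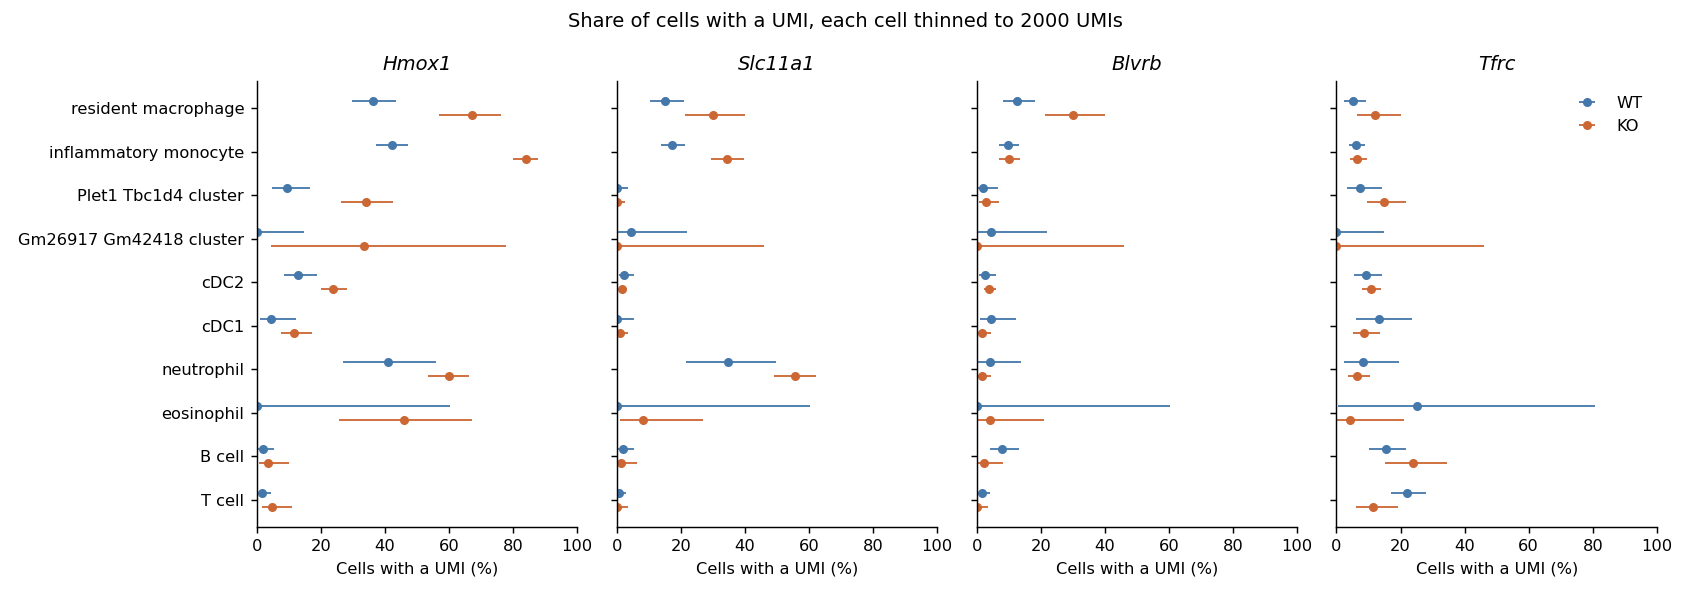
Share of cells with at least 1 UMI of Hmox1, Slc11a1, Blvrb and Tfrc in each class, in percent on a linear axis, after thinning each cell to 2000 UMIs and leaving out shallower cells. Points are shares in WT (blue) and KO (orange) and bars are exact Clopper-Pearson 95% intervals, wide for the eosinophil class because 4 WT and 24 KO cells were deep enough. The Hmox1 shares of monocyte-like cells stand at 42.1% and 84.1%.

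The ferritin chains were higher in KO in all 10 classes and in all 11 clusters, lymphocytes included. Fth1 (chromosome 19, 9980598 to 9985098, plus strand) was at 22998 CPM in WT against 38546 in KO neutrophil-like cells, 13379 and 23564 CPM in eosinophil-like cells, 10642 and 15372 CPM in monocyte-like cells and 9990 and 11237 CPM in resident macrophage-like cells. Its log2 ratio ran from 0.17 (0.13 to 0.21) in resident macrophage-like cells to 1.22 (1.14 to 1.31) in T cells. T cells held 1577 CPM in WT against 3678 in KO. Ftl1 (chromosome 7, 45457944 to 45459884, minus strand) ran, over the 10 classes, from 962 CPM in WT T cells to 11096 CPM in KO neutrophil-like cells. Its log2 ratio was 1.06 (0.97 to 1.16) in neutrophil-like, 0.87 (0.83 to 0.90) in monocyte-like and 0.60 (0.55 to 0.65) in resident macrophage-like cells. B cells had 0.48 (0.33 to 0.63). In resident macrophage-like cells the Ftl1 ratio was larger than the Fth1 ratio, and their intervals did not overlap. In T cells the Fth1 ratio was the larger, at 1.22 against 0.66 (0.54 to 0.78). Ftl1 has a near-identical pseudogene feature, Ftl1-ps1, with 1244 WT and 1911 KO UMIs, so the split of reads between them is uncertain.

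Markers of other cells also differed between the lymphocytes of the libraries. The summed level of 8 neutrophil markers in T cells was 13.5 CPM in WT against 212 in KO, with 5 and 7 of the markers detected. In B cells the same sum was 990 CPM in WT against 17.8 in KO, with 7 and 3 detected, while Fth1 was higher in KO there as well. In monocyte-like cells the same list was at 406 and 1560 CPM. In neutrophil-like cells, the class these markers name, it was at 48805 CPM in WT against 84207 in KO. The summed level of 8 cell cycle genes in T cells was 1246 CPM in WT against 267 in KO. Whether any of these shifts takes part in the ferritin ratios, or in the Hmox1 and Slc11a1 ratios of neutrophil-like cells, was not tested. Red cell transcripts were scarce, with 104 WT and 61 KO UMIs of 6 erythroid genes in all.

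Slc40a1 (chromosome 1, 45908068 to 45926523, minus strand), the only known cellular iron exporter, had its highest levels in neutrophil-like cells in both libraries among the classes of at least 30 cells. In neutrophil-like cells it was at 144 CPM (95.2 to 210) in WT against 179 (150 to 211) in KO, and in eosinophil-like cells at 97.7 CPM (56.9 to 156) and 59.3 CPM (39.1 to 86.3). Epithelial cells held 99.3 CPM (86.8 to 113) in WT and fibroblasts 78.2 CPM (54.2 to 109) in WT. These intervals and that of the eosinophil-like cells overlap the one of neutrophil-like cells, so the WT order is not settled. Resident macrophage-like cells held 5.58 CPM (2.55 to 10.6) in WT against 21.9 (13.4 to 33.8) in KO, from 9 and 20 UMIs, a log2 ratio of 1.97 (0.77 to 3.29). That interval was the only one of the 10 that lay above 0. On the scale with 1 CPM added the ratio was 1.80, and it was 0.52 with each library clustered alone and 0.51 with the Retnla Ccl24 and Lgmn Mmp14 clusters counted in. Monocyte-like cells held 1.44 and 2.80 CPM, and cDC1-like cells had 0 UMIs in both libraries, which allows up to 2.88 CPM in WT against 0.72 in KO (3 counts). Where the UMIs lay differed too, with 68.6% of the WT UMIs in epithelial cells and 60.6% of the KO UMIs in neutrophil-like cells, of which there were 78 WT and 259 KO cells. After thinning, 2 of 198 WT and 6 of 100 KO resident macrophage-like cells had a UMI, and the intervals of the shares overlap.

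Slc11a1 (chromosome 1, 74375195 to 74386062, plus strand) marked the phagocytes. Neutrophil-like cells held 251 CPM (185 to 334) in WT against 452 (406 to 502) in KO. Monocyte-like cells held 111 CPM (98.8 to 124) and 231 CPM (215 to 248), a log2 ratio of 1.06 (0.86 to 1.25), and within the Chil3 Ace cluster the ratio was 0.90 (0.41 to 1.44). Resident macrophage-like cells held 118 CPM (102 to 136) and 159 CPM (134 to 187), a ratio of 0.43 (0.11 to 0.75). Eosinophil-like cells held 74.7 and 138 CPM, with 0.89 (0.01 to 1.88). The interval of the ratio was above 0 in these 4 classes and in none of the others. After thinning, 17.3% of WT and 34.4% of KO monocyte-like cells had a UMI, against 1.84% and 1.19% of B cells. In the Retnla Ccl24 cluster Slc11a1 was at 159 CPM in 19 WT cells and 135 CPM in 150 KO cells, with overlapping intervals.

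Tfrc (chromosome 16, 32608920 to 32632794, plus strand) was higher in B cells, T cells and eosinophil-like cells than in resident macrophage-like cells in WT. It was at 167 CPM (112 to 239) in WT eosinophil-like cells, 117 CPM (94.1 to 144) in WT B cells and 101 CPM (85.1 to 119) in WT T cells, whose intervals overlap, and at 32.2 CPM (24.1 to 42.3) in WT resident macrophage-like cells. In KO, B cells held 137 CPM (103 to 179), eosinophil-like cells 132 CPM (101 to 170) and T cells 90.5 CPM (68.9 to 117). Of these only the T cells overlapped the KO resident macrophage-like cells, at 60.2 CPM (45.4 to 78.4). The log2 ratio in resident macrophage-like cells was 0.90 (0.33 to 1.48) from 52 and 55 UMIs. With 1 CPM added it was 0.88, and it was 0.23 with the Retnla Ccl24 and Lgmn Mmp14 clusters counted in. In cDC1-like cells it was lower in KO, at 43.2 against 59.6 CPM, with -0.47 (-0.89 to -0.02). In the other 8 classes the interval held 0, with -0.12 (-0.54 to 0.31) in monocyte-like cells. Tfrc was the only member with an interval below 0 in any class. The 8 cell cycle genes summed to 2039 CPM in WT against 2594 in KO in cDC1-like cells, and to 418 and 349 CPM in resident macrophage-like cells. The part of these levels in the Tfrc ratios was not tested.

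Cd163 (chromosome 6, 124304656 to 124330527, plus strand) was found in few cells, and 86 WT and 154 KO UMIs were counted in all. Resident macrophage-like cells held 35.3 CPM (26.8 to 45.8) in WT against 32.9 (22.2 to 46.9) in KO, for a log2 ratio of -0.10 (-0.79 to 0.56). Few cells carried these counts: the 5 cells with most Cd163 held 54.4% of the WT and 83.3% of the KO UMIs of the class, and without them in each library the ratio was -1.35. Cells with a UMI were 8.74% of the WT and 9.01% of the KO class. Of the WT UMIs 66.3% lay in this class, and of the KO UMIs 56.5% lay in cDC2-like cells, where the level was 7.09 CPM in WT against 14.3 in KO with a ratio of 1.02 (0.17 to 1.98). The clusters of that class differed, with 2.96 CPM in WT against 13.1 in KO in the Cd209a Mgl2 cluster, and 55.9 against 23.0 CPM, from 8 and 18 UMIs, in the Retnla Lpl cluster. KO monocyte-like cells had 0 Cd163 UMIs, which allows up to 0.93 CPM (3 counts), against 4 UMIs or 1.44 CPM in WT. In the Retnla Ccl24 cluster all 7 WT UMIs came from 1 cell.

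Blvrb (chromosome 7, 27447978 to 27466144, plus strand) had its highest KO level in resident macrophage-like cells. Resident macrophage-like cells held 94.8 CPM (80.4 to 111) in WT against 177 (151 to 207) in KO, for a log2 ratio of 0.90 (0.58 to 1.23), and the Retnla Ccl24 cluster held 124 CPM (73.6 to 196) and 106 CPM (91.3 to 122). After thinning, 25 of 198 WT and 30 of 100 KO resident macrophage-like cells had a UMI, with intervals that did not overlap. In monocyte-like cells the ratio was 0.35 (0.02 to 0.69), with 45.4 and 57.9 CPM, and thinned shares were 9.77% and 10.0%. Without the 2 clusters that draw over 80% of their cells from 1 library, the monocyte ratio was -0.63. B cells held 60.5 CPM in WT against 35.5 in KO, with -0.77 (-1.75 to 0.12).

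**Figure D4:**
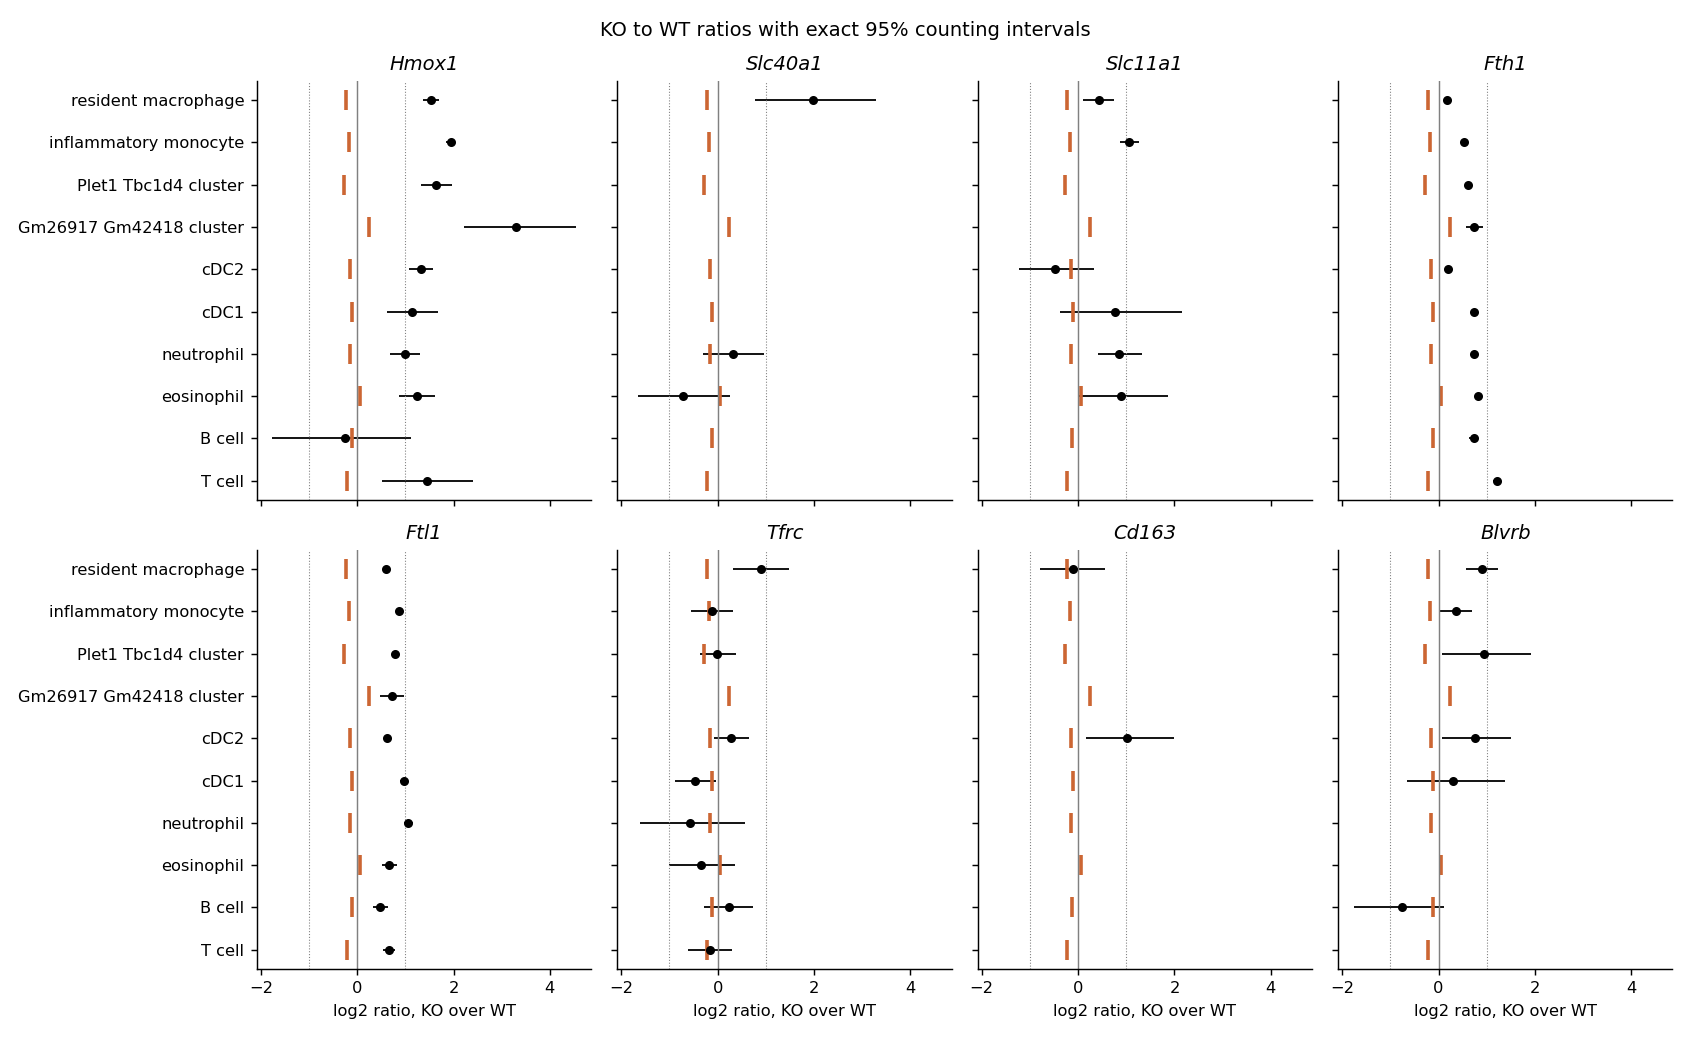
Log2 ratio of KO over WT for each of the 8 genes in the 10 classes, shown where at least 20 UMIs were counted over both libraries and both counts were above 0. Points carry exact 95% binomial intervals, orange ticks mark the median of all genes tested in the class, and dotted lines mark a 2-fold difference. Both ferritin chains lie above 0 in every class, from 0.17 to 1.22.

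As a list, the members were described by how many were past 2-fold, on the ratio with 1 CPM added to both levels, among those with at least 20 UMIs in a class. A member can pass that minimum through 1 library alone, so the counts are a description. In resident macrophage-like cells 2 of 8 tested members, Hmox1 and Slc40a1, were at least 2-fold higher in KO, against 3.38% of all genes tested, and 0 were at least 2-fold lower, against 9.37%. In monocyte-like cells it was 2 of 6, Hmox1 and Slc11a1, against 2.98%, and 0 lower, against 7.19%. Neutrophil-like cells had 1 of 6 higher, Ftl1, against 6.75%, and 0 lower, against 12.7%. Eosinophil-like cells had 1 of 6 higher, Hmox1, against 8.78%, and 0 lower, against 5.57%. In cDC1-like cells it was 1 of 6, Hmox1, against 4.54%, and 0 lower, against 3.34%. In cDC2-like cells it was 1 of 7, Hmox1, against 3.53%, and 0 lower, against 4.86%. T cells had 2 of 4 higher, Hmox1 and Fth1, against 4.11%, and 0 lower, against 14.4%. B cells had 0 of 5 higher, against 2.14%, and 0 lower, against 10.0%. On the same scale the median log2 ratio of the members tested was 0.74 in resident macrophage-like cells and 0.70 in monocyte-like cells, beside -0.23 and -0.18 for all genes tested.

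The other 53 iron and heme genes of a list of uptake, export, heme, iron sensing, mitochondrial and NRF2-related genes had their own counts. Of 36 tested in resident macrophage-like cells, 1 was at least 2-fold higher in KO, against 3.38% of all genes tested, and 3 at least 2-fold lower, against 9.37%. The median log2 ratio of the 36 was -0.40, beside -0.23 for all genes. The higher gene was Prdx1, a peroxide-reducing enzyme, at 492 CPM in WT against 1032 in KO. Ireb2, an iron sensor that binds the hairpins above, was at 40.9 and 14.2 CPM, a ratio of -1.52 (-2.51 to -0.65). Nfe2l2, the activator of Hmox1, was lower in KO at -0.75 (-0.90 to -0.60), and Bach1, its repressor, higher at 0.47 (0.30 to 0.63). Among genes that bring iron in, Slc11a2 was at 72.5 and 140 CPM and Trf, which encodes transferrin, at 214 and 380 CPM. The iron chaperones Pcbp1 and Pcbp2 were lower in KO, at -0.37 (-0.56 to -0.17) and -0.58 (-0.76 to -0.40), and Ncoa4, the receptor for ferritin breakdown, had 0.07 (-0.45 to 0.57).

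In monocyte-like cells 3 of 39 were at least 2-fold higher, against 2.98% of all genes tested, and 1 at least 2-fold lower, against 7.19%. Slc7a11, the cystine importer, was at 660 CPM in WT against 1365 in KO, a ratio of 1.05 (0.97 to 1.13). The gene is also abundant in neutrophil-like cells, and neutrophil markers were at 406 and 1560 CPM in the monocyte-like class. The part of these markers in the ratio was not tested. Gclm, of glutathione synthesis, was at 21.2 and 49.5 CPM. Lcn2, which binds bacterial iron carriers and is a granule protein of neutrophils, had 4 and 60 UMIs, beside the neutrophil marker values given above. Hp, encoding haptoglobin, was at 195 and 377 CPM, with 0.95 (0.80 to 1.10). It is among the 10 leading genes of the Chil3 Ace cluster, which gave 41 of the WT and 278 of the KO cells. Neither Hp nor any other gene of the list was read within clusters, so these ratios also hold the difference in clusters. Nfe2l2 was lower in KO here too, at -0.25 (-0.32 to -0.17), and Spic, a factor of heme-handling macrophages, was at 39.6 and 63.8 CPM, with 0.69 (0.35 to 1.04). In the resident class Spic had 44.0 and 32.9 CPM, with -0.42 (-1.09 to 0.21).

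In granulocytes and dendritic cells the counts varied. In neutrophil-like cells 5 of 24 tested were at least 2-fold higher, against 6.75% of all genes, and 2 at least 2-fold lower, against 12.7%. Eosinophil-like cells had 5 of 18 higher, against 8.78%, and 0 lower, against 5.57%. In cDC1-like cells 8 of 36 were higher, against 4.54%, and 1 lower, against 3.34%. In cDC2-like cells 2 of 40 were higher, against 3.53%, and 1 lower, against 4.86%. In neutrophil-like cells Gclm had a ratio of 2.20 (0.79 to 4.11), Lcn2 of 1.54 (1.11 to 2.00) and Hp of 1.08 (0.77 to 1.40). In cDC1-like cells Slc7a11 was at 45.2 CPM in WT against 254 in KO, a ratio of 2.49 (2.07 to 2.94). The 8 neutrophil markers summed to 10.6 CPM in WT against 313 in KO in this class, and their part in the Slc7a11 ratio was not tested. In the same cells Trf was at 63.4 and 196 CPM, with 1.63 (1.27 to 2.01). Trf was also higher in cDC2-like cells, at 1.52 (1.33 to 1.71). In B cells Slc7a11 had 58 WT and 3 KO UMIs, beside neutrophil markers at 990 and 17.8 CPM there, and the part of the markers in this was not tested. Slc7a11 is itself abundant in neutrophil-like cells, at 4867 CPM in WT against 8659 in KO.

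**Figure D5:**
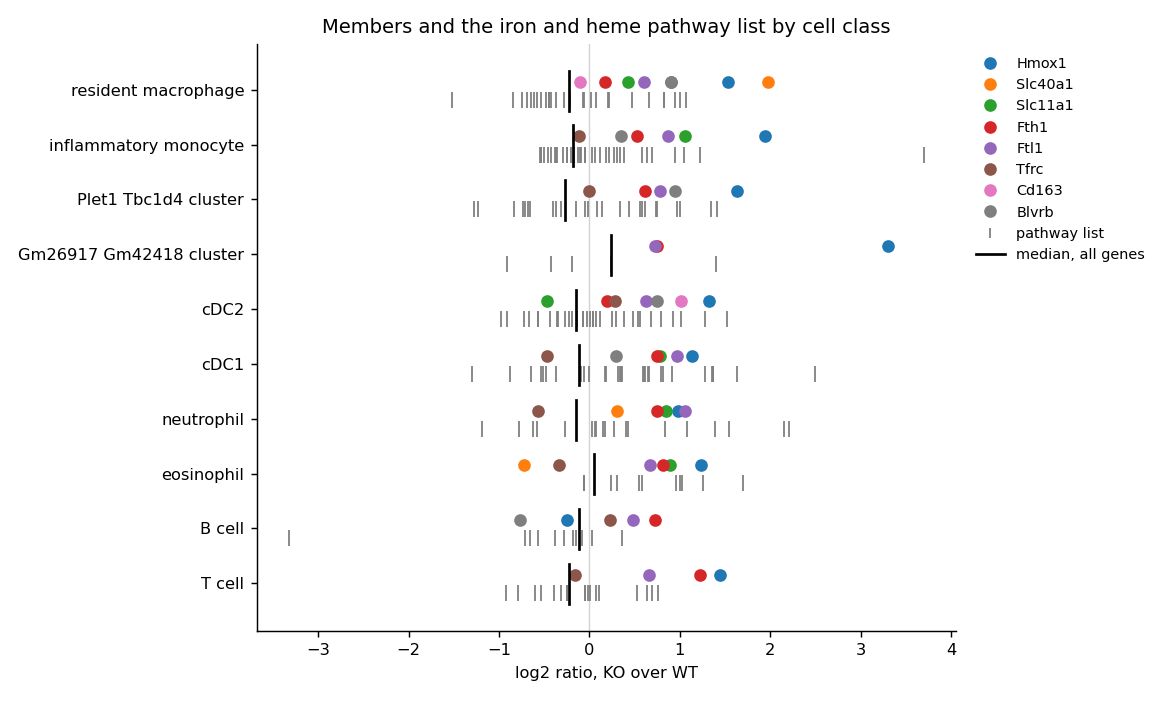
Log2 ratio of KO over WT in each class for the 8 members (coloured points, at least 20 UMIs) and for other iron and heme genes (grey ticks, at least 50 UMIs), with the median of all genes tested as a black line. In resident macrophage-like cells all 8 members lie to the right of the line at -0.23 (Tfrc and Blvrb coincide at 0.90), while many of the other genes lie to its left.

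Within cells of 1 class and library, Hmox1 was set beside the other members. Of KO resident macrophage-like cells, 48.6% had both Hmox1 and Blvrb, against 31.1% of WT cells. Hmox1 stood at 822 CPM in KO cells with a Blvrb UMI and 1114 in those without, and at 305 and 319 CPM in WT. Of the 13 KO cells with a Slc40a1 UMI 11 also had Hmox1, whose level was 1359 CPM in them and 852 in the rest, while in WT it was 266 CPM in 7 such cells and 312 in the rest. In KO monocyte-like cells Fth1 was at 15839 CPM in 337 cells with Hmox1 and 8032 CPM in 29 cells without. Cells with Hmox1 had a median of 9533 UMIs and those without 5407 UMIs, so depth differed between them. These are descriptions over cells of 1 library.

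Over the 20 profiles of 10 classes in 2 libraries, members were compared by Pearson correlation of log2 levels with 10 CPM added. Hmox1, Fth1 and Ftl1 correlated at 0.88 to 0.90 with each other, and Slc11a1 with Hmox1 at 0.85. Cd163 and Blvrb correlated with each other at 0.60 and with Hmox1 at 0.14 and 0.22. Tfrc had -0.09 with Fth1, -0.36 with Ftl1 and -0.34 with Hmox1. Profiles of a library share its depth and free RNA, so these values are a description. The genes most like each member were, for Hmox1, Mapkapk2 at 0.94, for Slc11a1, Mpp1 at 0.97, for Slc40a1, Csf1 at 0.96, for Fth1, Ehd1 at 0.95, for Ftl1, Ifrd1 at 0.92, for Tfrc, Pithd1 at 0.93, for Cd163, Pdgfa at 0.90 and for Blvrb, Tlr7 at 0.84.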

How the data were processed

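The authors deposited unnormalized UMI counts for each gene in each barcode, written by Cell Ranger 3.0.2 (per the file headers). The submitters' processing notes name mm10 and Seurat 4. The 8 genes and all lists were chosen with earlier results of these data known. Barcodes with 200 to 6000 detected genes and at most 15% mitochondrial UMIs were kept. Counts were scaled to 10000 per cell, 2000 variable genes without the iron and heme genes gave 30 principal components, and 15 neighbours were clustered with Leiden (leidenalg 0.10.2, resolution 1) over both libraries, where the study used DESC, and the number of barcodes differs from the cells the study counted. A cluster took the name of the class with the largest share of raised markers (2-fold with 10 CPM added, in 10% of cells or more) if at least 3 were raised and its top 10 genes held no more markers of another class; a cluster whose median depth was under the library's median divided by 3 also needed 2 of its own markers there. Doublets were not removed, and Scrublet in scanpy 1.11.5 called 1 WT and 9 KO cells, so it was taken not to have worked. Depth was a median of 5073 UMIs per WT cell and 6564.5 per KO cell, and 1 barcode was shared between libraries before filtering and 0 after. UMIs were summed per class and library. Ratios carry exact binomial intervals and counts exact Poisson intervals at 95%. The ratio intervals were tried on simulated Poisson counts, which vary by counting alone. That trial checks the calculation and cannot show how the intervals hold where counts vary between cells. Classes needed 30 cells in both libraries, and genes 20 UMIs over both. Named genes were the 8 members and list genes with at least 50 UMIs in the class. No test over samples was possible with 1 library per genotype. Alternatives changed the cell filter, doublets, resolution, clustering genes, naming, denominator, weighting of cells and thinning. The alternatives with only the Chil3 Ace cluster, without the clusters from 1 library and with unnamed clusters counted as resident concern the composition of the classes and were added after seeing the data. Coordinates and hairpins are from GENCODE M21 (GRCm38).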

Additional observations from a re-analysis of the deposited data

Results flagged for a closer look

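Tfrc differed in direction between classes. Its log2 ratio of KO over WT was 0.90 in resident macrophage-like cells, from 52 WT and 55 KO UMIs, and -0.47 in cDC1-like cells, from 62 and 180 UMIs, each with a counting interval that did not hold 0. The difference between the classes was not tested, since each genotype has 1 library.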

How the results depend on the processing

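No paired analysis was possible because each genotype has 1 library. The median log2 ratio of the members in monocyte-like cells, 0.70, became 0.98 with the top 3% of Scrublet scores removed. There the class held 100 WT cells and the resident class 528 WT cells, against 412 and 206 without the removal. The monocyte median was 0.61 with resident and monocyte-like cells pooled and 0.81 in the Chil3 Ace cluster alone. In resident macrophage-like cells the median, 0.74, became 0.39 with the Retnla Ccl24 and Lgmn Mmp14 clusters added. The Blvrb ratio in monocyte-like cells reversed to -0.63 without the clusters that take over 80% of their cells from 1 library. For Hmox1 the monocyte ratio ran from 1.02 to 2.92 over 14 alternatives and the resident ratio from 1.04 to 1.95 over 13. Of the single-gene values, 132 stayed within the counting interval of the value reported, 57 left it and 1 reversed. The count of members past 2-fold over 8 classes, 10, ran from 8 to 15 over the alternatives. It counts a gene once for each class and adds both directions. The share of all genes past 2-fold, given by class above, was not recomputed for the alternatives, so the range is a description. The class with the highest level was the same in at least 12 of 16 pairs of member and library. Hmox1 shares differed by 42.0 percentage points in monocyte-like cells, 34.3 without thinning and 44.1 at 1000 UMIs, and by 30.6 in resident macrophage-like cells, 18.4 without thinning and 19.2 at 1000 UMIs. In resident macrophage-like cells the ratio ran from 0.51 to 2.16 for Slc40a1, from -1.67 to 0.24 for Cd163 and from 0.17 to 1.26 for Tfrc. Counts in this class were low, with 9 WT and 20 KO UMIs of Slc40a1, 57 and 30 of Cd163 and 52 and 55 of Tfrc. All of the ratios are limited by 1 library per genotype. The cause of these shifts was not tested.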

Other observations

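Some classes had fewer than 30 cells in a library and are not among the 10 classes compared. In natural killer cells, of which there were 27 WT and 41 KO cells, Tfrc was at 198 CPM (137 to 279) in WT against 114 (70.7 to 175) in KO, among the highest levels of that gene. In mature dendritic cells, with 19 WT and 43 KO cells, Ftl1 was at 3581 CPM (3294 to 3887) in WT against 5367 (5191 to 5547) in KO, and Fth1 at 2281 and 2896 CPM. In fibroblasts, with 79 WT and 21 KO cells, Blvrb was at 32.2 CPM (17.6 to 54.0) in WT against 113 (72.3 to 168) in KO. In plasma cells, with 227 WT and 5 KO cells, Hmox1 was at 33.4 CPM (28.0 to 39.5) in WT.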
